A study of Homo sapiens with 6 samples.

Results

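The vascular endothelial growth factor gene VEGFA, the hypoxia-inducible factor (HIF) alpha subunit genes HIF1A and EPAS1, and typical HIF target genes were examined in HEK293 cells exposed to minocycline. The 10 members were VEGFA, HIF1A, EPAS1, EGLN1, EGLN3, CA9, BNIP3, ADM, ANKRD37 and KDM3A, taken by symbol from 57820 genes in the count table, and all 10 matched a row. HEK293 is an established human line derived from embryonic kidney and transformed with adenovirus DNA. One group of 3 libraries came from cells given 100 µM minocycline, a tetracycline antibiotic, for 12 h. The other group of 3 came from cells given the vehicle, dimethyl sulfoxide (DMSO), for 12 h. All 6 cultures were unstressed by heat, and total RNA was sequenced. The comparison asks how transcript levels differ after the drug, and here whether VEGFA was higher alone or along with other HIF targets. VEGFA was chosen by its fold change and adjusted p between these same libraries, so its own values are a description; the other 9 were listed by name for their role.

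HIF is a transcription factor made of an alpha subunit (such as HIF1A or EPAS1) and a constant partner, ARNT. In oxygen, prolyl hydroxylases of the EGLN family mark the alpha subunit, and the VHL ubiquitin ligase then sends it for degradation, so the factor is controlled mainly at the protein level. When oxygen falls or the hydroxylases are blocked, HIF accumulates and raises the transcription of genes for blood vessel growth, glucose use and mitochondrial turnover. VEGFA, a secreted ligand that drives the growth of blood vessels, is a classic HIF target and also responds to other factors, among them ATF4 of the integrated stress response.

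The libraries held 17303180 to 17835756 counts. The first principal component of the expressed genes, with 52.9% of the variance, did not separate the groups. It ran from -34.9 in control replicate 1 through -32.3, -14.0 and 3.06 in minocycline replicates 2, 1 and 3 to 31.1 and 47.1 in control replicates 2 and 3. Control replicate 1 thus lay beside minocycline libraries, and values without it are given beside the main results that it moved most. Of the HEK293 markers looked at, VIM ranged from 512 to 855 CPM (counts scaled to a common library size), NEFM from 68.9 to 84.6, KRT8 from 657 to 1048, KRT18 from 90.5 to 148, INA from 19.6 to 25.6, LIN28B from 18.4 to 50.5 and PAX2 from 2.61 to 5.08 CPM. None of these 7 passed between groups in edgeR, DESeq2 or limma-voom, and an unadjusted p under 0.05 occurred in 0 of them in edgeR and 1 in DESeq2. Over all genes edgeR called 0.0522%, and 4.7% had an unadjusted p under 0.05. The listed markers NEFL and PECAM1 were not analysed here. The leukocyte genes PTPRC and CD3E had at most 3 counts in any library, and with CD14 and ITGAM the 4 leukocyte markers together had 33 to 62 counts in controls and 39 to 56 with the drug. The endothelial genes CDH5, TEK and TIE1 had at most 6 counts, and the 5 endothelial markers together had 42 to 51 counts in controls and 27 to 59 with the drug, mostly from VWF. Levels below are CPM scaled by TMM factors, which adjust for differences in RNA composition.

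VEGFA transcripts were 2.01-fold higher with minocycline. The level was 60.6, 51.4 and 50.2 CPM in control replicates 1, 2 and 3, and 116, 101 and 110 CPM in minocycline replicates 1, 2 and 3. The lowest treated library lay well above the highest control library. The means were 54.1 ± 5.72 CPM in controls and 109 ± 7.74 CPM with the drug (SD, n = 3 each). In raw counts VEGFA had 1116, 861 and 830 reads in the control libraries and 2122, 1849 and 1917 in the treated ones, so counting error was small beside the difference. The difference was also of similar size within each batch given in the labels, at log2 differences of 0.93, 0.96 and 1.12 in batches 1, 2 and 3.

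The fitted log2 fold change of VEGFA was 1.01 ± 0.13 (SE), with a 95% interval of 0.71 to 1.303. In edgeR's quasi-likelihood test over 17225 genes it had a Benjamini-Hochberg adjusted p of 0.0488, the 9th smallest. This is the value that chose the gene, and it sat just under the threshold of 0.05. The size of the change was stable over 15 other settings, from 0.95 to 1.10, while the call was not. It was kept in 8 of the 15, with adjusted p values from 8.05e-08 (DESeq2) to 0.566. It was lost with RLE factors (adjusted p = 0.0541), with library size alone (0.0611), and on leaving out control replicate 2 (0.566), control replicate 3 (0.159) or minocycline replicate 1, 2 or 3 (0.462, 0.182 and 0.334). Without control replicate 1 the adjusted p was 0.000117, in a setting where 17.9% of all genes tested passed.

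VEGFA (ENSG00000112715.16) lies on the plus strand of chromosome 6 from 43737921 to 43754224 in GRCh37 coordinates. The gene yields several protein isoforms by alternative splicing, which a count per gene does not separate. An unnamed gene on the opposite strand shares 188 exon bases with VEGFA and had 0 counts in every library.

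**Figure D1:**
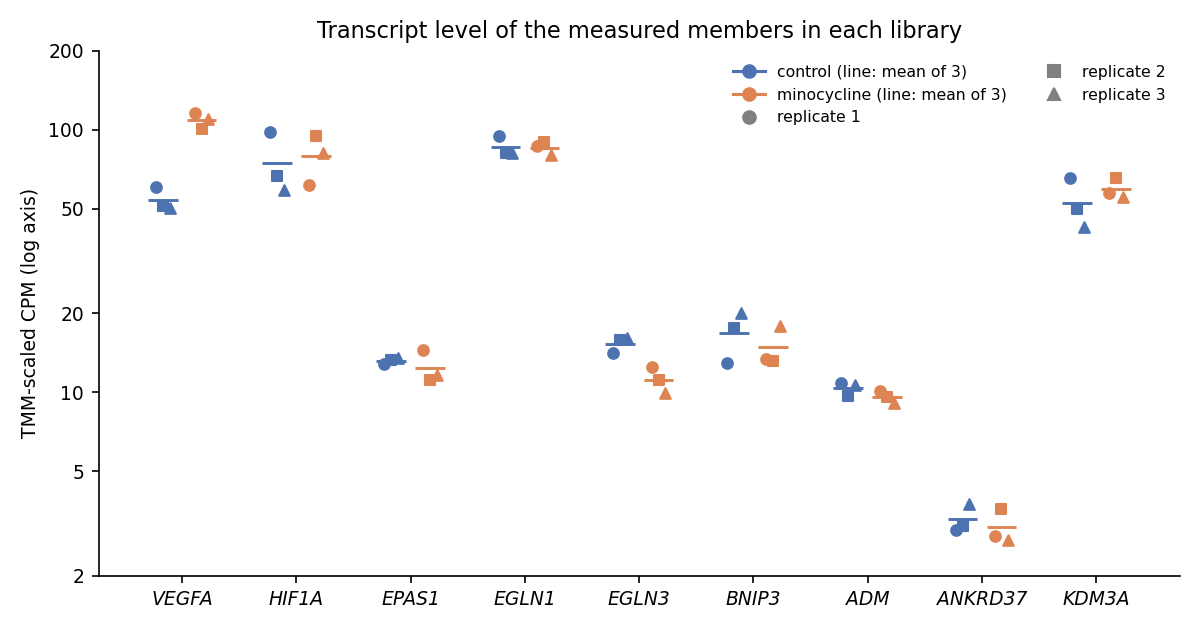
Level of the 9 members that passed the filter on low counts, in TMM-scaled CPM on a log axis, with 1 point for each library (shape: replicate) and a line at each group mean; CA9 had at most 4 counts in a library and is not drawn. The treated libraries of VEGFA sit at 101 to 116 CPM, above all controls, those of EGLN3 sit below all controls, and the other 7 members overlap between groups.

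Of the 10 members 9 passed the filter, and VEGFA was the single member past the adjusted threshold, where 0.0522% of all genes tested were called, each of them higher. The groups did not overlap in 2 of the 9, VEGFA (higher) and EGLN3 (lower), against 9.31% of all genes tested (5.74% higher, 3.56% lower). These 2 members also had an unadjusted p under 0.05, as did 4.7% of all genes (2.72% higher, 1.97% lower). The remaining 7 tested members had treated and control libraries that overlapped. Leaving VEGFA aside, the 8 tested members had a median log2 fold change of -0.09, with 2 fitted higher and 6 lower, while 52.1% of all genes were fitted higher. None of these 8 passed in edgeR, DESeq2 or limma-voom, and 1 of them, EGLN3, had an unadjusted p under 0.05 in each. The median over all genes tested was 0.01.

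The alpha subunits of HIF showed no shared direction. HIF1A, the widely expressed alpha subunit, had 98.0, 66.6 and 59.1 CPM in control replicates 1, 2 and 3 and 61.5, 94.8 and 81.8 CPM in minocycline replicates 1, 2 and 3. Its highest value was in control replicate 1 and its next highest in minocycline replicate 2, the libraries that stood together on the first principal component. The log2 fold change was 0.09 ± 0.22 (95% interval -0.40 to 0.58, adjusted p = 0.924). Within batches 1, 2 and 3 the log2 difference was -0.67, 0.51 and 0.47, so its sign changed between batches. Without control replicate 1 the fitted change was 0.34 (adjusted p = 0.140). Antisense genes HIF1A-AS1 and HIF1A-AS3 overlap its exons and had at most 3 and 5 counts in a library, against 977 to 1803 for HIF1A.

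EPAS1, which encodes HIF-2 alpha, had 12.8, 13.3 and 13.5 CPM in the control libraries and 14.4, 11.1 and 11.6 CPM in the treated ones. Treated libraries lay on both sides of the controls, and the log2 fold change was -0.09 ± 0.16 (95% interval -0.46 to 0.28). The partner subunits ARNT and ARNT2 had log2 fold changes of 0.02 ± 0.13 and 0.19 ± 0.14. HIF3A had at most 3 counts in a library and was not tested. Of the 4 tested subunit genes 0 passed in edgeR, DESeq2 or limma-voom, and 0 had an unadjusted p under 0.05. With 0.0522% of all genes passing in edgeR and 4.7% having an unadjusted p under 0.05, 0 of 4 says little about the subunits.

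Among the oxygen sensors, EGLN1, the main hydroxylase of HIF1A in most cells and itself a HIF target, had nearly equal means and overlapping libraries. It had 94.3, 81.6 and 81.2 CPM in the control libraries and 86.9, 89.7 and 80.1 CPM in the treated ones. The log2 fold change was -0.0027 ± 0.12, and its 95% interval of -0.28 to 0.28 corresponds to 0.822-fold to 1.21-fold. The size of the VEGFA change lies outside that interval. VEGFA was chosen for its difference and its own error is not used here, so this is a description and carries no test.

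EGLN3, the hydroxylase gene most often used as a marker of HIF activity, was lower in every treated library. It had 14.1, 15.8 and 16.1 CPM in control replicates 1, 2 and 3 and 12.5, 11.1 and 9.94 CPM in minocycline replicates 1, 2 and 3. The log2 fold change was -0.46 ± 0.16 (95% interval -0.82 to -0.09). Its unadjusted p of 0.0186 became an adjusted p of 0.820 over all genes, so EGLN3 did not pass. In the 15 other settings it ran from -0.54 to -0.38 and passed in 1, the omission of control replicate 1 (-0.51, adjusted p = 0.0374). In that setting 17.9% of all genes tested passed (8.34% lower).

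The other genes of HIF oxygen sensing and degradation did not pass either. Of 9 genes tested on this list, 1 was fitted higher and 8 lower, with a median log2 fold change of -0.04, while 52.1% of all genes were fitted higher. None passed in edgeR, DESeq2 or limma-voom. In edgeR 2 (EGLN3 and ELOC) had an unadjusted p under 0.05, as did 4.7% of all genes. EGLN2, the third hydroxylase, had -0.04 ± 0.15, and HIF1AN, which hydroxylates an asparagine of the alpha subunit, had -0.02 ± 0.12. For VHL, the subunit that recognises hydroxylated HIF, the value was -0.02 ± 0.15, and for its cullin scaffold CUL2 it was 0.08 ± 0.19. The small subunits of that ligase gave -0.37 ± 0.22 (ELOB), -0.38 ± 0.15 (ELOC) and -0.27 ± 0.18 (RBX1). ELOC had an unadjusted p of 0.0300 and an adjusted p of 0.820.

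The remaining members are targets of HIF. BNIP3 encodes a mitochondrial outer membrane protein that promotes mitophagy. It had 12.9, 17.6 and 20.1 CPM in the control libraries and 13.4, 13.2 and 17.9 CPM in the treated ones, a log2 fold change of -0.19 ± 0.21 (95% interval -0.65 to 0.28). With 1 library left out this value ran from -0.36 (without minocycline replicate 3) to -0.05 (without control replicate 3), and without control replicate 1 it was -0.35, with no pass in any of these. The lowest BNIP3 value was in control replicate 1. Minocycline replicate 3 (17.9 CPM) also lay above control replicate 2 (17.6 CPM), so the groups overlapped with or without control replicate 1. Counts of BNIP3 are uncertain because its 42 pseudogenes in the table held 23 to 50 counts per library, against 238 to 332 for BNIP3.

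ADM, which encodes the vasodilator peptide adrenomedullin, had 10.9, 9.67 and 10.7 CPM in the control libraries and 10.1, 9.57 and 9.09 CPM in the treated ones. Its log2 fold change was -0.12 ± 0.16 (95% interval -0.47 to 0.23). KDM3A, a histone H3 lysine demethylase, had 65.5, 49.98 and 42.7 CPM in the control libraries and 57.3, 65.3 and 55.7 CPM in the treated ones. All 3 treated KDM3A values lay within the span of the controls, and the log2 fold change was 0.17 ± 0.17 (95% interval -0.21 to 0.56). Without control replicate 1 it was 0.36 (adjusted p = 0.0668).

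ANKRD37, a small ankyrin repeat gene that is among the most regular HIF targets across cell lines, had 2.99, 3.105 and 3.75 CPM in the control libraries and 2.84, 3.59 and 2.74 CPM in the treated ones. This is 48 to 66 counts per library, and the log2 fold change of -0.10 ± 0.23 had a 95% interval of -0.62 to 0.42. With 1 library left out it ran from -0.23 (without minocycline replicate 2) to -0.0018 (without control replicate 3). UFSP2 shares 909 exon bases with ANKRD37 on the opposite strand and had 286 to 325 counts, so the level of ANKRD37 is uncertain. CA9, the surface carbonic anhydrase that serves as a hypoxia marker in tumours, was nearly silent, with counts of 0, 2 and 0 without the drug and 4, 0 and 0 with it. It did not pass the filter, and no fold is given. ARHGEF39 shares 571 exon bases with CA9 on the opposite strand and had 584 to 724 counts.

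The promoters of the members were searched for the core of the HIF binding site, ACGTG, on both strands, because these letters are what HIF contacts in its targets. RefSeq start sites gave windows of 250 bases before to 50 bases after the start for 9 members. VEGFA has no entry. The core occurred in 4 of the 9, EGLN1, CA9, BNIP3 and ANKRD37, and in 21.4% of all 35116 promoter windows. With GCGTG, the other common form of the core, 8 of the 9 had a match, as did 48.4% of all windows. Members were counted if any of their windows matched, and the 9 members had 11 windows, while the percentages count single windows. The window of EGLN3 held neither. The 4 windows with ACGTG are shown because they hold the core. EGLN1, BNIP3 and ANKRD37 did not pass, and CA9 was too low to test. Sites outside the windows were not searched, and VEGFA has no window to set beside these. Capitals mark ACGTG or its reverse complement CACGT, which overlap where the letters read CACGTG, and coordinates are GRCh38.p14, a different build from the gene positions.
EGLN1, chr1:231422238-231422537, minus strand: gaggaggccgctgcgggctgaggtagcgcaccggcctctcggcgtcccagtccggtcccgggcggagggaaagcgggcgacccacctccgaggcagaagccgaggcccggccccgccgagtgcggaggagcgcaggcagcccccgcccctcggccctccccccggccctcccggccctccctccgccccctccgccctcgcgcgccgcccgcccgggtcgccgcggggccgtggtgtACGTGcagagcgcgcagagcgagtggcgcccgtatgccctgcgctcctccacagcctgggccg
CA9, chr9:35673678-35673977, plus strand: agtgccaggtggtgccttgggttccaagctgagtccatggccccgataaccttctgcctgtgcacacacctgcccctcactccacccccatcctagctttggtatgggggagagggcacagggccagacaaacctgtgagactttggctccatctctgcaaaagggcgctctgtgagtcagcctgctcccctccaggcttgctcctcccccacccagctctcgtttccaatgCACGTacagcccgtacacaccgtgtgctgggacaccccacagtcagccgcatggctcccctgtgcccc
BNIP3, chr10:131981874-131982173, minus strand: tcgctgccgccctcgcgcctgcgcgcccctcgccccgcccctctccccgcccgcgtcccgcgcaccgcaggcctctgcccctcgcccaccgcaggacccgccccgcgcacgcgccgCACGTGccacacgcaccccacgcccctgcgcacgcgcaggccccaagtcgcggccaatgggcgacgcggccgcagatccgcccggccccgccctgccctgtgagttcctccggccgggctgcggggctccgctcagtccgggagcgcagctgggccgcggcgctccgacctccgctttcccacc
ANKRD37, chr4:185396591-185396890, plus strand: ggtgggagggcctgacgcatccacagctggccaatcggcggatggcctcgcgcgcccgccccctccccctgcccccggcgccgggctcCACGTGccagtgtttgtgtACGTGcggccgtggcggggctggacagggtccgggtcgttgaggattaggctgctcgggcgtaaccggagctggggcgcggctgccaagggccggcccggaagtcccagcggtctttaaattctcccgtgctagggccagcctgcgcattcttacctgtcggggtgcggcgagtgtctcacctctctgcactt

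In EGLN1 the core begins 13 bases before the start, and in CA9 its reverse complement begins 18 bases before it. ANKRD37 holds a CACGTG whose first base is 162 bases before the start and a further ACGTG at 143 bases before it, while BNIP3 holds a single CACGTG beginning 134 bases before the start. These are matches of letters, and binding of HIF to them was not tested. Of these 4 genes, CA9 had almost no counts, and EGLN1, BNIP3 and ANKRD37 had log2 fold changes of -0.0027, -0.19 and -0.10.

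A wider list of 71 HIF targets, drawn up with earlier results of these libraries known, was read the same way. Of these, 69 were tested. VEGFA, STC2 and DDIT4 passed, each of them higher, where 0.0522% of all genes tested were called. Among the 62 tested targets that are not members, 31 were fitted higher and 31 lower, with a median log2 fold change of -0.0007, against 0.01 for all genes. The groups did not overlap in 11 of the 62, 7 with treated libraries higher and 4 lower, against 5.74% and 3.56% of all genes. In edgeR 6 higher and 0 lower targets of the 62 had an unadjusted p under 0.05, against 2.72% and 1.97% of all genes. With STC2 and DDIT4 left out, 4 higher ones remained.

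STC2, the gene of the secreted hormone-like protein stanniocalcin 2, stood at 44.7 ± 5.11 CPM in controls and rose to 173 ± 18.7 CPM (log2 fold change 1.96 ± 0.14, adjusted p = 0.00289). DDIT4, which encodes the mTORC1 inhibitor REDD1, rose from 40.7 ± 11.3 to 143 ± 19.0 CPM (1.81 ± 0.21, adjusted p = 0.0208). DDIT4 did not pass without control replicate 2 (adjusted p = 0.137), minocycline replicate 1 (0.187) or minocycline replicate 3 (0.223). As background, both genes are also known to respond to ATF4. Of 6 genes listed as shared with the ATF4 response, all 6 were fitted higher, as were 52.1% of all genes, and 4 passed in edgeR (0.0522% of all genes) and 5 in DESeq2. That list was drawn up with these results known and holds STC2 and DDIT4 themselves, so its count supports no direction. Also among the 4 were SLC7A11 (2.37 ± 0.21) and ASNS (1.59 ± 0.16), an amino acid antiporter and asparagine synthetase. ATF4 itself went from 691 ± 143 to 1163 ± 159 CPM (0.75 ± 0.19, adjusted p = 0.810 in edgeR and 0.0846 in DESeq2). ADM2, a paralogue of ADM, had 1.14, 2.57 and 3.32 CPM in the control libraries and 13.1, 6.80 and 8.74 CPM in the treated ones, and at 2.03 ± 0.38 on the log2 scale it did not pass in edgeR (adjusted p = 0.217) or limma-voom (0.238) but did in DESeq2 (0.000111).

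**Figure D2:**
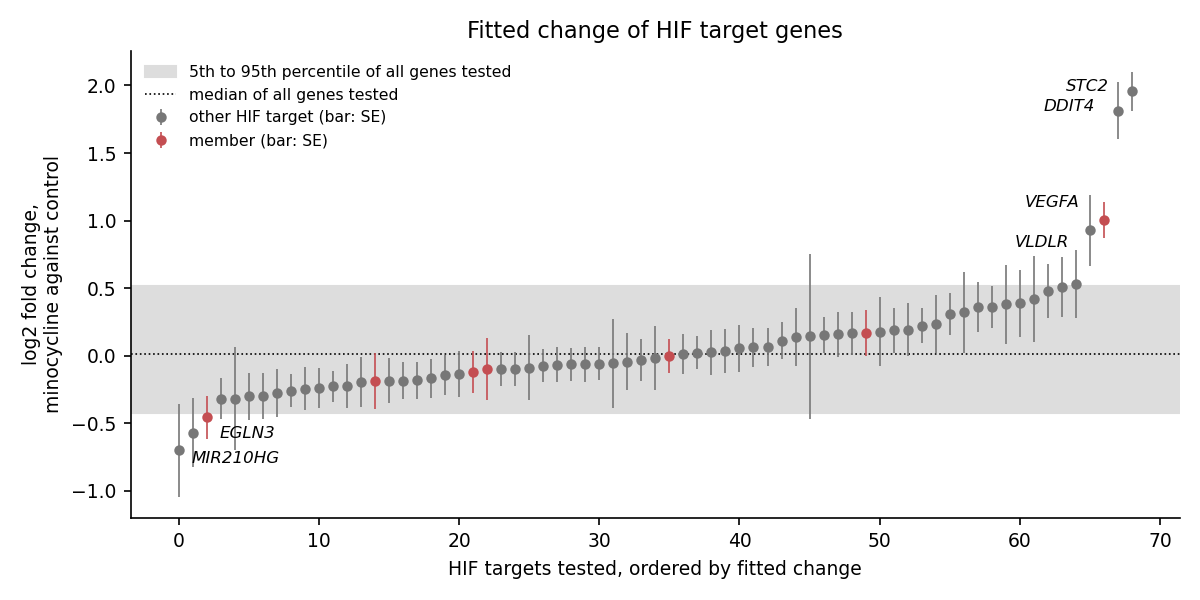
Fitted log2 fold change, minocycline against control, of the 69 HIF targets tested, in order of size, with bars of 1 SE; the tested members on the target list are red, which leaves out HIF1A and EPAS1. The grey band holds the middle of all genes tested, from -0.43 (5th percentile) to 0.52 (95th). STC2, DDIT4, VEGFA and VLDLR lie clear above the band, and P4HA1 (0.53) lies just above its edge. MIR210HG and ALDOC lie below the band, and EGLN3 (-0.46) lies just below its edge.

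Of 22 tested genes for glucose transport, glycolysis and its regulation, 6 (27.27%) were fitted higher and 16 lower, with a median of -0.17, against 52.1% of all genes fitted higher. The list's median log2 difference was 0.07 in batch 1, which holds control replicate 1, and -0.10 and -0.27 in batches 2 and 3, so the sign of the median turned between batches. Single genes did not all follow the median. The groups did not overlap in 1 gene with treated libraries higher (PDK1) and 4 lower (LDHA, PDK3, AK4 and GYS1). Over all genes the shares were 5.74% and 3.56%. LDHA and AK4 are named for this alone. None passed in edgeR, DESeq2 or limma-voom, where edgeR called 0.0522% of all genes. In edgeR 1 (SLC2A1) had an unadjusted p under 0.05, as did 4.7% of all genes. In DESeq2 4 genes had one, and the share of all genes is not given here for DESeq2, so that count cannot be read against it. The transporter genes SLC2A1 and SLC2A3 had log2 fold changes of 0.51 ± 0.22 and 0.36 ± 0.19 (adjusted p = 0.820 for both). PDK1, a pyruvate dehydrogenase kinase gene, had 0.15 ± 0.13. The 3 lower genes with the smallest p were the aldolase gene ALDOC at -0.57 ± 0.25, the pyruvate dehydrogenase kinase gene PDK3 at -0.32 ± 0.15 and the glycogen synthase gene GYS1 at -0.26 ± 0.12. All 3 had an adjusted p of 0.820.

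Outside metabolism, the lower end of the list held EGLN3, the host transcript of miR-210 (MIR210HG, -0.70 ± 0.34) and the ubiquitin ligase adaptor gene KCTD11 (-0.30 ± 0.17). MIR210HG, whose microRNA is a standard marker of hypoxia, had 2.99, 6.39 and 7.62 CPM in the control libraries and 3.50, 2.66 and 4.29 CPM in the treated ones. Its low value in control replicate 1 overlapped the treated group. VLDLR, a lipoprotein receptor gene picked out after its values were seen, had 12.8, 6.69 and 6.29 CPM in the control libraries and 16.3, 17.02 and 15.8 CPM in the treated ones. The groups did not overlap, and the fitted change was 0.93 ± 0.26 on the log2 scale (adjusted p = 0.820).

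Without control replicate 1 the count of called targets changed. Of the 62 other targets 16 then passed, 12 higher and 4 lower, while 17.9% of all 17658 genes tested passed (9.52% higher, 8.34% lower). Among the 12 were VLDLR (1.34 ± 0.17), SLC2A1 (0.79 ± 0.15), SLC2A3 (0.56 ± 0.15), the collagen prolyl hydroxylase genes P4HA1 (0.90 ± 0.16) and P4HA2 (0.75 ± 0.14), the collagen lysyl hydroxylase gene PLOD2 (0.79 ± 0.16) and the endoplasmic reticulum oxidase gene ERO1A (0.77 ± 0.14), where all but the SLC2A genes were chosen after their values were seen. P4HA1 had 20.3, 10.8 and 10.8 CPM in control replicates 1, 2 and 3 and 18.7 to 21.7 CPM in the treated libraries. MIR210HG (-1.01 ± 0.24), ALDOC (-0.80 ± 0.19) and the glycolytic genes TPI1 (-0.45 ± 0.12) and ALDOA (-0.43 ± 0.13), the last pair also chosen after their values were seen, were the 4 lower ones. In this setting both remaining control libraries lay at one end of the first principal component, so treatment cannot be told apart from that component. The part of this gradient in the target values was not tested.

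Among ligands of the VEGF family VEGFA stood alone in passing. VEGFB, a ligand of the receptor FLT1, had 50.6, 85.1 and 90.7 CPM in the control libraries and 60.2, 50.6 and 71.3 CPM in the treated ones (log2 fold change -0.31 ± 0.22, adjusted p = 0.820). VEGFC, which acts on lymphatic vessels, had 10.0, 8.84 and 7.62 CPM in the control libraries and 12.2, 9.84 and 12.2 CPM in the treated ones (0.37 ± 0.18, adjusted p = 0.820). PGF, the placental growth factor gene, had 8.64, 10.4 and 12.5 CPM in the control libraries and 6.88, 5.600 and 8.40 CPM in the treated ones, and the groups did not overlap (-0.59 ± 0.22, unadjusted p = 0.0212, adjusted p = 0.820). VEGFD had at most 6 counts in a library and was not tested. Without control replicate 1, PGF and VEGFB passed as lower genes (-0.72 and -0.53, adjusted p = 0.0221 and 0.0160). In that setting 17.9% of all genes tested passed (8.34% lower).

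Of the 4 tested receptor and co-receptor genes 0 passed in edgeR, DESeq2 or limma-voom, and 0 had an unadjusted p under 0.05. In edgeR 0.0522% of all genes passed and 4.7% had an unadjusted p under 0.05, so 0 of 4 says little about these genes. FLT4, the VEGFC receptor gene, had the highest level of the 5 receptor and co-receptor genes, with means of 65.7 ± 5.93 CPM in controls and 65.2 ± 5.20 CPM with the drug. FLT1 was near 3 CPM in both groups, at 3.22 ± 1.19 and 3.34 ± 0.418 CPM. KDR, the main signalling receptor for VEGFA on endothelium, had 2 to 10 counts per library and was not tested. The co-receptor genes NRP1 and NRP2 had log2 fold changes of 0.20 ± 0.25 and 0.44 ± 0.23. NRP1 was 0.54 without control replicate 1 (adjusted p = 0.0528) and 0.03 without control replicate 2. NRP2 passed in 1 of 15 other settings, the omission of control replicate 1 (0.70, adjusted p = 0.0143), where 9.52% of all genes tested passed as higher.

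Of 17 other genes for ligands that act on vessels, 13 were tested, with a median log2 fold change of 0.08. None passed in edgeR, DESeq2 or limma-voom or had an unadjusted p under 0.05. The edgeR shares over all genes were 0.0522% passing and 4.7% with an unadjusted p under 0.05, so 0 of 13 lies near them. The members of this list with the smallest p in the higher direction were HBEGF (0.29 ± 0.17), EFNB2 (0.32 ± 0.26) and ANG (0.40 ± 0.45), and in the lower direction APLN (-1.03 ± 0.50), MDK (-0.15 ± 0.20) and EFNA1 (-0.10 ± 0.18). APLN and ANG had few counts, with means under 1 CPM in both groups. HBEGF, a ligand of the epidermal growth factor receptor, had 14.5, 14.2 and 10.7 CPM in the control libraries and 15.7, 16.0 and 16.3 CPM in the treated ones.

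**Figure D3:**
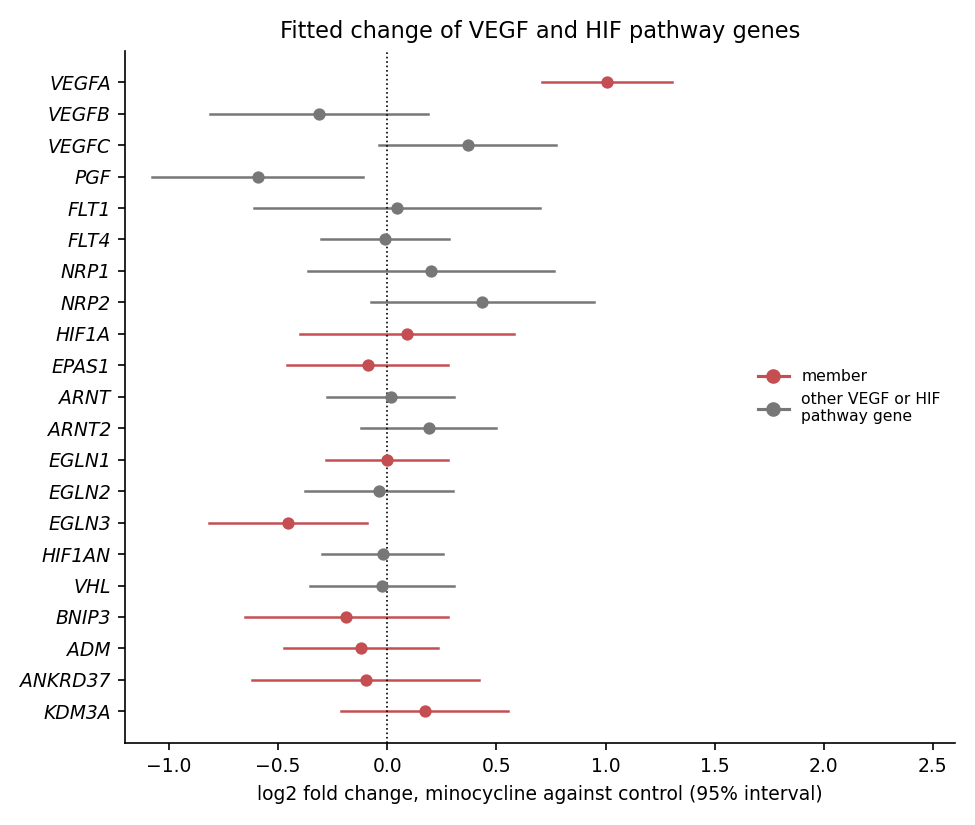
Fitted log2 fold change, minocycline against control, with its 95% interval, for tested members (red) and other genes of VEGF signalling and HIF control (grey). VEGFA spans 0.71 to 1.303, and the intervals of EGLN3 and PGF lie below 0 although neither passed after adjustment over all genes.

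The ratio of VEGFA to another member within a library needs no scaling between libraries. VEGFA reads per EGLN1 read numbered 0.643, 0.630 and 0.618 without the drug and 1.33, 1.12 and 1.37 with it. Against KDM3A the ratio was 0.926, 1.03 and 1.17 in the control libraries and 2.02, 1.54 and 1.97 in the treated ones. Against HIF1A it was 0.619, 0.772 and 0.850 in the control libraries and 1.89, 1.06 and 1.34 in the treated ones. For each of the 8 tested members used as the denominator, every treated library had a higher ratio than every control library. The gap between the lowest treated and highest control ratio was smallest for HIF1A, at 1.25-fold, and largest for EGLN3, at 2.10-fold. Since VEGFA was chosen for its difference, these ratios are a description of unequal change and carry no test.

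Per kilobase of the main annotated transcript, the order of the members in control cells was EGLN1, HIF1A, VEGFA, KDM3A, BNIP3, ADM, EGLN3, ANKRD37, EPAS1 and CA9. EGLN1 stood at 19.8 ± 1.71 CPM per kilobase, HIF1A at 18.9 ± 5.23 and VEGFA at 14.98 ± 1.59. KDM3A and BNIP3 followed at 11.3 ± 2.49 and 10.9 ± 2.35. The ranges of EGLN1 and HIF1A overlapped, as did those of HIF1A and VEGFA, of VEGFA and KDM3A, and of KDM3A and BNIP3, so these neighbours did not differ beyond their spread. Lower down, ADM (6.98 ± 0.434), EGLN3 (5.66 ± 0.406), ANKRD37 (4.18 ± 0.522) and EPAS1 (2.55 ± 0.0704) had ranges that did not overlap with the next in order. These ranges hold the spread between libraries alone. The places of ANKRD37 and BNIP3 stay uncertain, given the exons shared with UFSP2 and the BNIP3 pseudogenes. With minocycline VEGFA stood first at 30.1 ± 2.14, above the range of every other member, and the order of the rest changed in 1 place, with HIF1A (20.1 ± 4.26) ahead of EGLN1 (19.7 ± 1.14).

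The genes whose level most resembled that of VEGFA over the 6 libraries included 1 from the HIF target list, STC2. Among 11874 genes with a mean of at least 5 CPM, the highest Pearson correlations of log2 CPM with VEGFA were those of ZNF773 (0.998), SLC3A2 (0.996), STC2 (0.994), SLC1A4 (0.993) and MARS1 (0.991). These are a zinc finger gene, the heavy chain of amino acid exchangers, stanniocalcin 2, a neutral amino acid transporter and the cytosolic methionyl-tRNA synthetase. Their log2 fold changes were 0.22 ± 0.12, 0.79 ± 0.12, 1.96 ± 0.14, 1.01 ± 0.14 and 0.91 ± 0.12, and of the 5 STC2 passed. Over 6 libraries that share 2 groups, any gene with separated groups scores high, so the values rank genes and test nothing. KDM3A was the nearest of the other members at 0.536, HIF1A had 0.227 and EGLN1 0.107, and EGLN3 had -0.903.

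**Figure D4:**
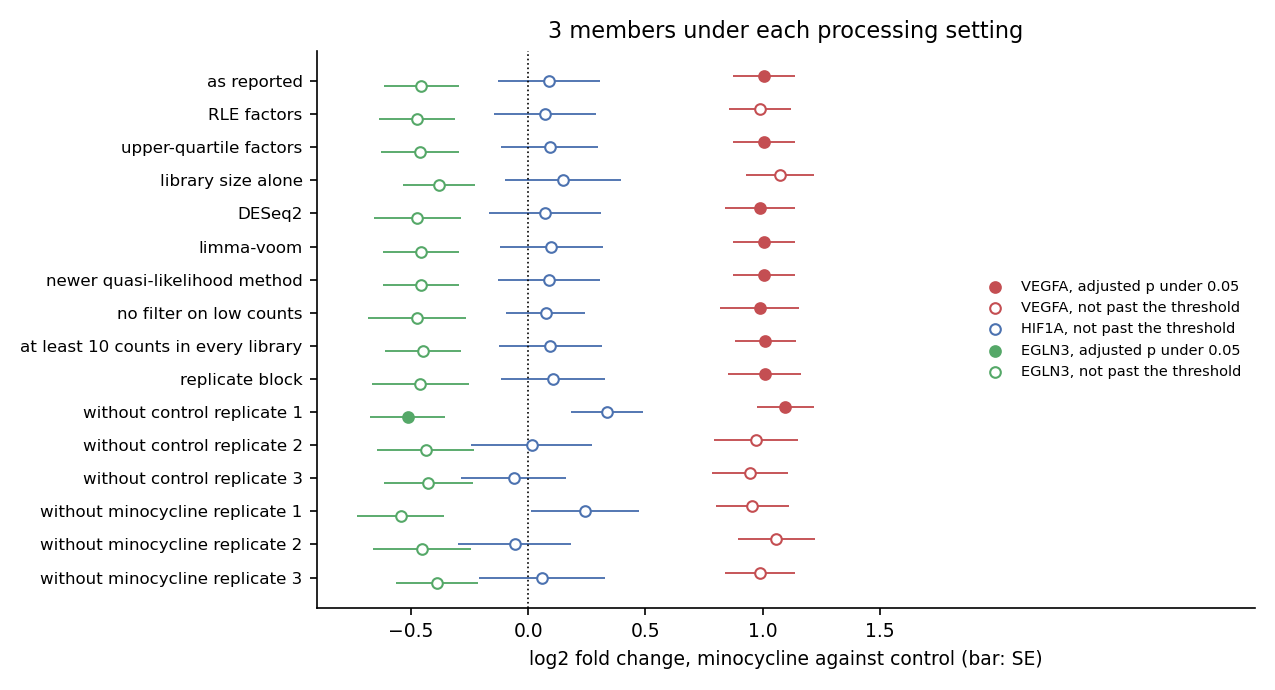
Fitted log2 fold change of VEGFA, HIF1A and EGLN3 with bars of 1 SE in the reported fit and in 15 other settings; filled points have an adjusted p under 0.05. VEGFA stays between 0.95 and 1.10 and loses its call in 7 settings, EGLN3 stays between -0.54 and -0.38 and passes in 1, and HIF1A runs from -0.06 to 0.34.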

How the data were processed

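Gene counts, whole and not normalized, were deposited by the authors in 1 table that covers 6 libraries and 57820 versioned Ensembl identifiers. Per the submitters' processing notes the build was hg19; the aligner, counter and strand use are not given in the sources used here. Symbols were matched for 55538 identifiers. Gene positions and the length of the Ensembl canonical transcript came from GENCODE v44 mapped to GRCh37, whose nuclear chromosomes match hg19.

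Groups and replicates came from sample titles; the series text calls the replicates biological. Genes were filtered with filterByExpr, scaled by TMM and tested with edgeR 4.0.16 (glmQLFit and glmQLFTest, R 4.3.3) with treatment as the single term, and p-values were adjusted by Benjamini-Hochberg over 17225 genes. The SE is the fold change divided by the square root of F, and 95% intervals use the test's degrees of freedom. CPM are TMM-scaled, and 0.5 CPM was added before within-batch log2 differences. Correlations used log2 CPM with a prior count of 2. The script was tested on simulated data. A further leukocyte marker is not reported here.

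Members, lists and tests were chosen with earlier results of these data known. Named genes are all members, every gene of pathway lists with 10 or fewer genes, the 3 smallest p in each direction of longer lists, and the 5 genes most correlated with VEGFA; others are marked. Alternatives were DESeq2 1.42.0, voom (limma 3.58.1), scaling by RLE, by upper quartiles or by library size, edgeR's newer quasi-likelihood method, 2 other filters, the replicate block and each library left out.

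In the labels each replicate number equals a batch number, which means that same-numbered libraries share a batch. Deviations from group means correlated at -0.05, -0.29 and 0.30 in same-numbered pairs 1, 2 and 3. The highest value of any pair was 0.50, for control replicate 1 with minocycline replicate 2, so the pairing rests on the label.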

Additional observations from a re-analysis of the deposited data

How the results depend on the processing

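Over 15 alternatives the log2 fold change of VEGFA kept its direction, with 0.99 under RLE factors and 1.07 under library size alone, where it missed the threshold, and 0.95 to 1.10 with 1 library left out. The number of members past the threshold was 0 with RLE factors, 0 with library size alone, and 0 to 2 with 1 library left out. With the replicate block VEGFA gave 1.01 (adjusted p = 0.0378), 1 member and 2 other HIF targets passed, and 13 genes passed in all, so the pairing changed no call among the members. Other HIF targets past the threshold numbered 1 to 16 with 1 library left out. Over all genes 50 passed with DESeq2, 94 with no filter on low counts, and 1 to 3154 with 1 library left out. The cause of these shifts was not tested.

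Some uncalled values near 0 changed sign. EGLN1 was 0.0657 with library size alone, 0.0034 with at least 10 counts in every library, and -0.0487 to 0.071 with 1 library left out. FLT4 was 0.0655 with library size alone and -0.0846 to 0.0356 with 1 library left out, FLT1 ran from -0.18 to 0.37 and HIF1A from -0.0612 to 0.34. Depth limits CA9, HIF3A, VEGFD and KDR, which had at most 10 counts in a library.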
